A study of Mus musculus with 12 samples.

Results

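Integrins are receptors of the cell surface, each made of an alpha and a beta subunit, that hold cells to the extracellular matrix or to other cells. Laminins, each made of an alpha, a beta and a gamma chain, build the basement membrane under an epithelium and around vessels, nerves and muscle. In the gut, leukocytes use integrins to leave the vessels and settle in the mucosa, and epithelial cells are anchored to laminin through the integrin made of Itga6 and Itgb4. The genes described here are the integrin alpha and beta subunits and the laminin chains of the mouse, chosen by symbol from the table of all genes, with Itgbl1 (no integrin subunit) left out. They were 38 of 21899 genes, namely 18 integrin alpha subunits, 9 integrin beta subunits and 11 laminin chains. By the cells mainly known to make them, 9 were grouped as leukocyte, 8 as epithelial and 13 as stromal subunits. The other 8, with Itga2b of platelets among them, were grouped as subunits of several cell types.

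RNA came from the whole colon of 12 mice, of which 6 lacked Pck1 in the intestinal epithelial cells (CKO) and 6 were littermate controls (WT). All 12 had received 2.5% dextran sulfate sodium (DSS), which injures the colon lining, for 7 days, so every difference below is between DSS-treated genotypes. The sources used here do not give the Cre driver, age or sex of the mice. Pck1, the cytosolic phosphoenolpyruvate carboxykinase, stood at 2.28 to 7.32 CPM (counts scaled to a common library size) in CKO colons and at 34.5 to 84.7 CPM in WT colons. Total counts were 15348192 to 18211663 in the CKO libraries and 15881625 to 19138507 in the WT libraries. CKO replicate 4 and WT replicate 4 lay near or across the border between the genotypes: among the 12 higher subunits named below, CKO 4 was the lowest CKO library in 9, WT 4 was the highest WT library in 10, and CKO 4 lay below WT 4 in 9. Epithelial markers were abundant in every library, with a summed level of 8341 to 9375 TPM (transcript abundance corrected for gene length) in CKO and 8012 to 11764 TPM in WT. Exocrine pancreas genes summed to 6.78 to 1735 TPM in CKO and 12.1 to 21918 TPM in WT, highest in WT replicate 6.

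Of the 38 subunits 36 passed the low-count filter, and most of them had a higher mean level in CKO colons. The log2 fold change, CKO over WT, was above 0 in 30 and below 0 in 6, with a median of 0.31, whereas the median of all 14393 tested genes was -0.03. In edgeR's quasi-likelihood test, adjusted by Benjamini-Hochberg over all tested genes, 0 of the 36 had an adjusted p under 0.05, where 0.0556% of all tested genes had one (0.0278% higher and 0.0278% lower in CKO). At an adjusted p under 0.1, 12 subunits were higher in CKO and 1 was lower, 36.1% of the 36, against 9.62% of all tested genes (6.59% higher and 3.02% lower). At an unadjusted p under 0.05, 14 were higher and 1 was lower, 41.7% of the 36, against 22.6% of all tested genes (13.1% higher and 9.48% lower). DESeq2 called 13 higher and 1 lower at an adjusted p under 0.05, where it called 10.7% of all genes it tested. limma voom called 1 subunit, Itgb3, where it called 0.340% of genes. In edgeR without CKO replicate 4, 12 subunits passed an adjusted p of 0.05 (8.80% of all genes), and without WT replicate 4, 10 passed (6.96% of all genes). Without WT replicate 6, Itgam and Itgb3 passed (2.58% of all genes), as they did with all 12 libraries scaled by library size only (1.91% of all genes). With DESeq2's size factors in edgeR, Itgb3 passed (0.361% of all genes), and without both libraries numbered 4, a setting chosen after seeing the data, 13 subunits passed (13.3% of all genes). In the authors' deposited table, 14 of the 38 subunits were higher and 1 was lower at an adjusted p under 0.05, where 6.35% of all 21899 genes passed in either direction. Only 18161 of these genes had at least 1 count, so this share has a wider base than the shares of tested genes above.

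By class, the counts are a description and the difference between classes was not tested. Of the 8 epithelial subunits 0 lay under an adjusted p of 0.1 and 0 under an unadjusted p of 0.05 in edgeR, and neither DESeq2 nor limma voom called one; with 9.62% of all tested genes under an adjusted p of 0.1, a count of 0 among 8 genes is near the background. Of the 13 stromal subunits 5 were higher at an adjusted p under 0.1, as were 5 of the 8 subunits of several cell types. Of the 7 tested leukocyte subunits 2 were higher and 1 was lower by the same rule. The median log2 fold change was 0.09 over the epithelial subunits, 0.44 over the stromal subunits, 0.19 over the leukocyte subunits and 0.89 over the subunits of several cell types. The laminin chains had a median of 0.53 and the integrin subunits a median of 0.21. The ratios within a library, given further on, were tested for single pairs of subunits. Several of them share a subunit, and they do not test the classes.

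**Figure D1:**
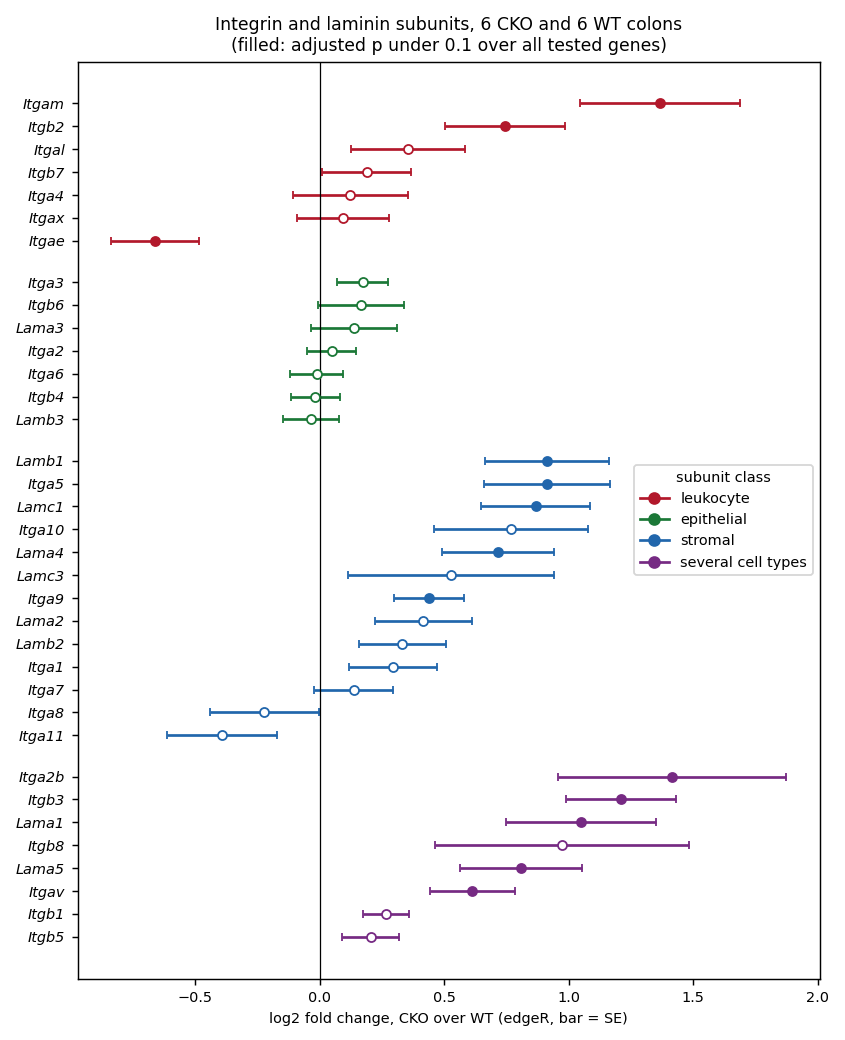
Log2 fold change of 35 tested subunits, CKO over WT, in blocks of leukocyte, epithelial, stromal and several-cell-type subunits; points are edgeR estimates, bars their SE (n = 6 each), and filled points had an adjusted p under 0.1. The 7 epithelial subunits drawn lie between -0.03 and 0.17, while Itgam, Itgb3, Itga2b and Lama1 lie above 1.

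Promoters are shown for the subunit with the smallest p in each class among those with a promoter used here. Itgam, Lamb1 and Itgav had an edgeR adjusted p under 0.1, though not under 0.05, and the epithelial Itga3 had one of 0.342. Promoters from RefSeq (build GRCm38.p6) were used for 24 of the 38 subunits, after filtering all promoters by sequence length and chromosome. Those without one here included Itgae, Itgb2, Itgal, Itgad, Lama3, Itgb4, Itga6, Lamc1, Lama4, Lamc3, Itga7, Itgb3 and Lama1. The 250 bases before the transcription start are printed 5′ to 3′ on the gene's strand, for Itga3 before the first of its 2 listed starts. Itgam is at chr7:128062390-128062639 (+), Itga3 at chr11:95076715-95076964 (-), Lamb1 at chr12:31265043-31265292 (+) and Itgav at chr2:83724147-83724396 (+). Capitals mark matches, on either strand, to GGGCGG (the SP1 core), TGANTCA (AP-1), GAGGAA (the core bound by PU.1 and other ETS factors) or TATAAA (the TATA box), and no printed matches overlap each other.
Itgam: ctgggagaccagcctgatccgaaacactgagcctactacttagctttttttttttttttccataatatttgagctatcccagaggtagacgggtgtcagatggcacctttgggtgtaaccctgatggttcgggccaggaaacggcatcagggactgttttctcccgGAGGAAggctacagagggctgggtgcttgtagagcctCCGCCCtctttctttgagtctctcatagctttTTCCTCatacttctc
Itga3: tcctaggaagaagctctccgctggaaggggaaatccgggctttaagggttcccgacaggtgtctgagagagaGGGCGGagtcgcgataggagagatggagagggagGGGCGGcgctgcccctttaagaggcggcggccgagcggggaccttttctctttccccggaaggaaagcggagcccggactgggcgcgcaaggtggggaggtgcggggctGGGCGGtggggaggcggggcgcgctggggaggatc
Lamb1: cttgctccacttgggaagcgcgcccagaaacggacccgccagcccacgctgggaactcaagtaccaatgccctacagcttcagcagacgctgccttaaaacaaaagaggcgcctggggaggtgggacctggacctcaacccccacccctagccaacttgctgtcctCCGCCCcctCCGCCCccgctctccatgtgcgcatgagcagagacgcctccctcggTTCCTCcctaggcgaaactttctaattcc
Itgav: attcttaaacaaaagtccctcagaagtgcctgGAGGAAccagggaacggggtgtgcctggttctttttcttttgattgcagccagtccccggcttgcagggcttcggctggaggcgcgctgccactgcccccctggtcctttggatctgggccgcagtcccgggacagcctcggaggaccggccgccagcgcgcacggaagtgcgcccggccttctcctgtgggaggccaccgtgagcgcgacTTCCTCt
Itga3 has 3 GGGCGG matches and no other, Itgam has 1 GGGCGG and 2 GAGGAA, Lamb1 has 2 GGGCGG and 1 GAGGAA, and Itgav has 2 GAGGAA. Over the 24 subunits, GAGGAA was present in 12, where 23.1% of the 27025 promoters of this length used here held it. By class it was present in 2 of 5 leukocyte, 1 of 4 epithelial, 5 of 9 stromal and 4 of 6 several-cell-type subunits. Of its holders, Itgam, Lamb1, Itgav, Itga5, Itga2b and Lama5 had an edgeR adjusted p under 0.1. Itgb1, Lama2, Lamb2, Itga11 and Lamb3 did not, and Itgb2l was not tested. GGGCGG was present in 8, where 32.9% of these promoters held it. TGANTCA was present in 1, that of Itgax, where 6.87% of these promoters held it, and TATAAA in 0, where 13.0% did. A match is a string of letters, and binding was not measured here.

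Itgb3 had the smallest p of the subunits. Its product pairs with that of Itgav on endothelium, macrophages and osteoclasts to bind vitronectin, fibronectin and osteopontin, and with that of Itga2b on platelets to bind fibrinogen. Itgb3 (ENSMUSG00000020689) had a lowest, median and highest level of 29.2, 37.3 and 70.8 CPM in CKO, against 13.5, 17.6 and 26.4 CPM in WT. All 6 CKO libraries lay above all 6 WT libraries, CKO 4 being the lowest of its group and WT 4 the highest of its own. The log2 fold change was 1.21 ± 0.22 (SE; edgeR adjusted p = 0.0512), and the exact two-sided permutation p was 0.00216, the lowest value this test can reach with 6 mice a group. Groups without overlap were found for 2 of the 36 subunits, Itgb3 and Itgae, and for 1.52% of all tested genes (0.882% with CKO higher and 0.639% with CKO lower). Each library is whole colon, so here and below more cells of a type and more RNA per cell cannot be told apart.

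Both alpha partners of Itgb3 also stood higher in CKO, at very different levels. Itgav, whose product joins several beta subunits, had a lowest, median and highest level of 114, 157 and 220 CPM in CKO, against 85.9, 94.9 and 143 CPM in WT (log2 fold change 0.61 ± 0.17, SE; edgeR adjusted p = 0.0685). Of the CKO libraries 5 lay above all WT libraries, and CKO 4 lay among the WT libraries. Itga2b, which marks platelets and their precursors, had 0.741, 1.46 and 4.86 CPM in CKO and 0.344, 0.648 and 1.41 CPM in WT (1.42 ± 0.46; edgeR adjusted p = 0.0931). Only 2 of 6 platelet markers were high enough to test; the 6 summed to 21.0, 27.3 and 68.5 TPM (lowest, median and highest) in CKO and 13.9, 17.2 and 27.1 TPM in WT, and their part in the Itga2b values was not tested.

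The other beta partners of Itgav differed less or varied more. Itgb5 had 64.7, 75.0 and 107.6 CPM (lowest, median and highest) in CKO and 60.4, 67.9 and 75.1 CPM in WT (0.21 ± 0.11; edgeR adjusted p = 0.304), and its ranges overlapped. Itgb8, which with Itgav activates latent TGF-beta, had 2.88, 6.14 and 18.6 CPM in CKO and 0.925, 3.28 and 6.89 CPM in WT (0.97 ± 0.51; edgeR adjusted p = 0.279), with CKO 3 far above the rest; without CKO 3 the log2 fold change was 0.51. Itgb1, the partner of most matrix-binding alpha chains, was the most abundant subunit by TPM, at 341 ± 28.5 TPM in CKO and 272 ± 25.6 TPM in WT (SD, n = 6 each). In CPM it had 595, 684 and 797 in CKO and 508, 573 and 649 in WT (0.27 ± 0.09; edgeR adjusted p = 0.112; exact permutation p = 0.00866), and 5 CKO libraries lay above all WT libraries.

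**Figure D2:**
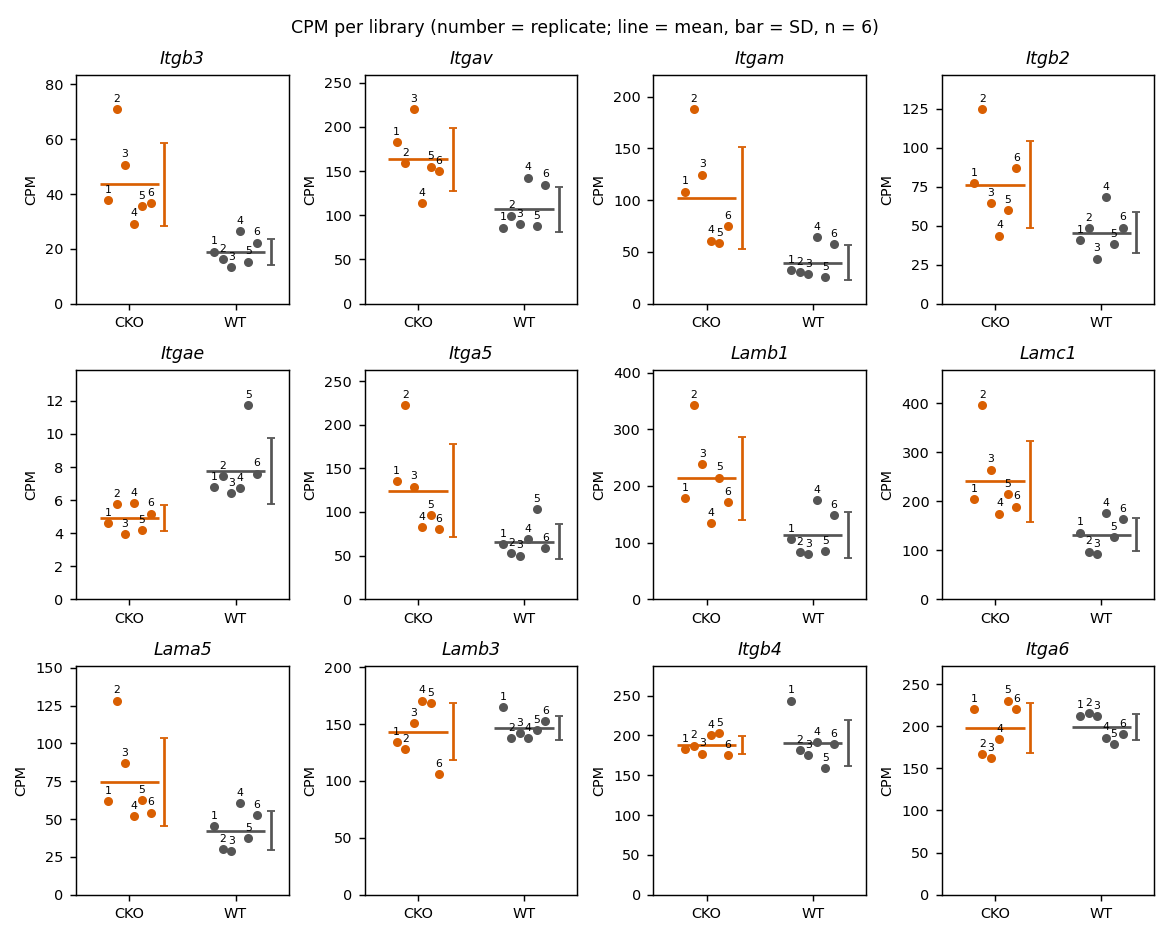
CPM of 12 subunits in each library, CKO left of WT; numbers are replicates, lines are means and bars SD (n = 6 each). Itgb3 and Itgae do not overlap between the genotypes, Itgam, Itgav, Lamb1 and Lamc1 overlap in a few libraries, and Lamb3, Itgb4 and Itga6 overlap with medians close to each other, Lamb3 spreading more in CKO and Itgb4 more in WT.

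Several laminin chains made mainly by stromal cells and vessels stood higher in CKO. Lamc1, the gamma chain of most laminins, had a lowest, median and highest level of 175, 209 and 396 CPM in CKO, against 92.2, 131 and 175 CPM in WT (log2 fold change 0.87 ± 0.22, SE; edgeR adjusted p = 0.0587). Lamb1, the beta chain that often joins it, had 135, 196 and 343 CPM in CKO and 80.0, 95.9 and 176 CPM in WT (0.91 ± 0.25; edgeR adjusted p = 0.0646). For Lamc1 5 CKO libraries lay above all WT libraries, and for Lamb1 4 did. Lama4, an alpha chain of vessel walls and muscle, had 65.2, 86.4 and 157 CPM in CKO and 42.5, 54.8 and 87.5 CPM in WT (0.72 ± 0.22; edgeR adjusted p = 0.0858).

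The alpha chains found in several tissues also stood higher in CKO. Lama5, a main alpha chain of adult epithelial and vascular basement membranes, had a lowest, median and highest level of 52.0, 62.3 and 128 CPM in CKO, against 28.8, 41.5 and 60.4 CPM in WT (0.81 ± 0.25; edgeR adjusted p = 0.0813). Lama1, best known from embryonic basement membranes, had 17.3, 27.2 and 41.3 CPM in CKO and 6.54, 11.4 and 24.0 CPM in WT (1.05 ± 0.30; edgeR adjusted p = 0.0714). In Lamc1, Lamb1, Lama4, Lama5 and Lama1 alike, CKO 2 was the highest and CKO 4 the lowest CKO library, and WT 4 was the highest and WT 3 the lowest WT library. The remaining stromal chains did not pass an adjusted p of 0.1 in edgeR. Lama2, an alpha chain of muscle and nerve sheaths, had 28.3, 37.99 and 60.6 CPM in CKO and 21.4, 30.5 and 40.0 CPM in WT (0.42 ± 0.19; edgeR adjusted p = 0.223). Lamb2 stood at a log2 fold change of 0.33 ± 0.18 and the scarce Lamc3 at 0.53 ± 0.41; without CKO 2, Lama2, Lamb2 and Lamc3 stood at 0.27, 0.13 and 0.22.

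Lama3 and Lamb3, chains of the laminin that epithelial cells lay down for themselves, did not pass an adjusted p of 0.1 in edgeR. Lamb3 had a lowest, median and highest level of 106, 143 and 171 CPM in CKO, against 138, 143 and 165 CPM in WT (log2 fold change -0.03 ± 0.11, SE; edgeR adjusted p = 0.892). Lama3 had 68.5, 98.4 and 125 CPM in CKO and 66.6, 84.6 and 109 CPM in WT (0.14 ± 0.17; edgeR adjusted p = 0.685). A p that misses the threshold does not show that the levels were equal. With 1 library left out, the log2 fold change of Lama3 ran from 0.05 to 0.22.

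**Figure D3:**
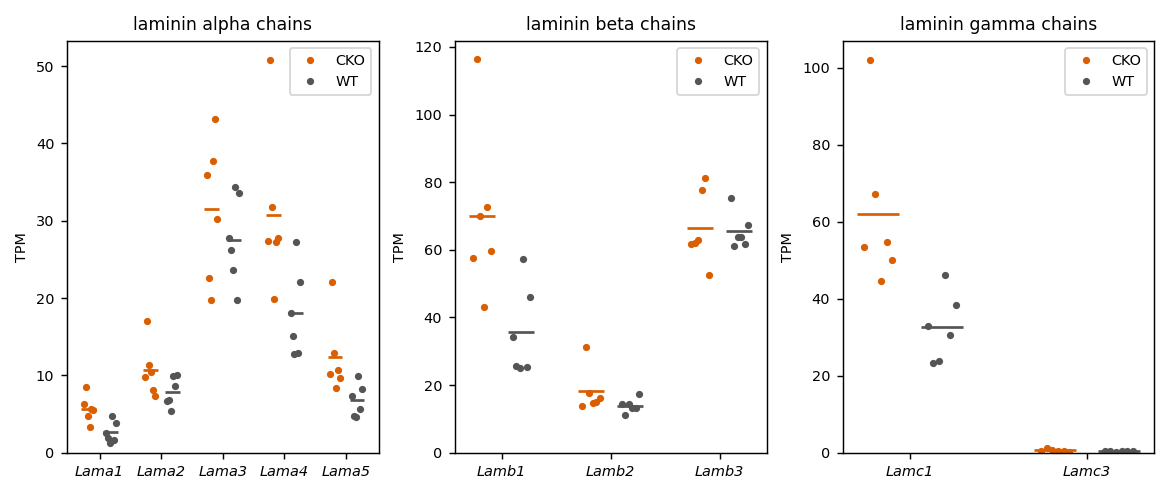
TPM of laminin alpha, beta and gamma chains in each library, CKO left of WT within each gene, with lines at the means (n = 6 each). Lamb1 and Lamc1 average 70.0 and 61.9 TPM in CKO and 35.6 and 32.5 TPM in WT, while Lamb3 averages 66.3 TPM in CKO and 65.4 TPM in WT.

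Within the beta and alpha chains the shares of summed TPM were also compared. Among beta chains, Lamb1 had a median share of 44.8% in CKO (31.8% to 55.6%) and 26.9% in WT (24.4% to 42.7%), and Lamb3 had 44.0% in CKO (29.5% to 57.3%) and 61.1% in WT (47.6% to 62.4%). Among alpha chains, Lama3 had the largest median share in both genotypes, with 38.8% in CKO (18.7% to 47.2%) and 43.8% in WT (39.8% to 49.6%), and Lama4 came next, with 32.5% in CKO (24.9% to 42.0%) and 27.96% in WT (26.5% to 31.6%). All these ranges overlapped between the genotypes.

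The epithelial integrin subunits likewise did not pass an adjusted p of 0.1 in edgeR. Itgb4, which with Itga6 forms the core of the hemidesmosome, had a lowest, median and highest level of 176, 185 and 203 CPM in CKO, against 159, 185 and 244 CPM in WT (log2 fold change -0.02 ± 0.10, SE; edgeR adjusted p = 0.947). Itga6 had 163, 203 and 230.5 CPM in CKO and 178, 201 and 215 CPM in WT (-0.01 ± 0.10; edgeR adjusted p = 0.964). The sign of Itgb4, Itga6 and Lamb3 depended on the scaling between libraries, and with scaling by library size only they stood at 0.0239, 0.0326 and 0.00406. Itga3, whose product joins that of Itgb1 as a laminin receptor, had 147, 179 and 193 CPM in CKO and 130.03, 150.2 and 194 CPM in WT (0.17 ± 0.10; edgeR adjusted p = 0.342). Itgb6, the epithelial partner of Itgav that activates latent TGF-beta, had 39.4, 58.6 and 79.0 CPM in CKO and 35.9, 54.7 and 62.5 CPM in WT (0.17 ± 0.17; edgeR adjusted p = 0.619). Itga2, a collagen receptor subunit, had 94.5, 112 and 141 CPM in CKO and 103, 111 and 121 CPM in WT (0.05 ± 0.10; edgeR adjusted p = 0.816). Beside these values, 7 of 8 epithelial markers had a log2 fold change below 0 (median -0.16). In edgeR 0 of them passed an adjusted p of 0.1 and 4 an unadjusted p of 0.05. Of all tested genes, 9.48% were lower in CKO at an unadjusted p under 0.05. The part of the epithelial markers in the epithelial subunit values was not tested.

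The integrin alpha subunits of stromal cells did not share a direction. Itga5, whose product with that of Itgb1 is the main fibronectin receptor, had a lowest, median and highest level of 80.7, 113 and 223 CPM in CKO, against 49.99, 60.7 and 104 CPM in WT (log2 fold change 0.91 ± 0.25, SE; edgeR adjusted p = 0.0681). All CKO libraries lay above the WT median and 3 lay above all WT libraries; WT 5, not WT 4, was the highest WT library. Itga9, a receptor subunit for tenascin-C and other ligands, had 31.9, 39.6 and 59.0 CPM in CKO and 24.7, 32.3 and 36.2 CPM in WT (0.44 ± 0.14; edgeR adjusted p = 0.0923). The others did not pass an adjusted p of 0.1. Itga1, a collagen receptor subunit, stood at 0.30 ± 0.18, Itga7, a laminin receptor subunit of muscle, at 0.14 ± 0.16, and Itga10, scarce in every library at 1.65 CPM or less, at 0.77 ± 0.31. Below 0 stood Itga8, a receptor subunit for nephronectin, at -0.22 ± 0.22, and Itga11, a collagen receptor subunit of fibroblasts, at -0.39 ± 0.22. For Itga11 all 6 CKO libraries lay below the WT median, with 1.58, 2.75 and 3.31 CPM in CKO and 2.34, 3.73 and 4.20 CPM in WT.

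Markers of fibroblasts and endothelium moved with the higher subunits, whereas smooth muscle markers went the other way. At an adjusted p under 0.1 in edgeR, 6.59% of all tested genes were higher in CKO and 3.02% were lower. All 6 fibroblast markers had a log2 fold change above 0 (median 0.73; 3 at an adjusted p under 0.1 in edgeR), and they summed to 1946, 2866 and 4682 TPM (lowest, median and highest) in CKO and 1162, 1243 and 2423 TPM in WT. All 6 endothelial markers were above 0 (median 0.65; 5 at an adjusted p under 0.1), with 178, 230.4 and 382 TPM in CKO and 119.6, 141 and 194 TPM in WT. Enteric neuron and glia markers had a median of 0.46, with 2 of 6 at an adjusted p under 0.1. All 6 smooth muscle markers were below 0 (median -0.37; 0 at an adjusted p under 0.1), with 1655, 1763 and 2612 TPM in CKO and 1662, 2194 and 3593 TPM in WT. The fibroblast and endothelial sums were highest in CKO 2 and lowest among CKO libraries in CKO 4, like the laminin chains above. Adipocyte markers had a median of -0.36 and exocrine pancreas markers a median of -2.62, with 0 at an adjusted p under 0.1 in either list. Of the 4 adipocyte markers 3 were below 0 and 1, Fabp4, stood at 0.79. Their sum was 64.2, 130 and 266 TPM (lowest, median and highest) in CKO and 71.0, 87.6 and 149 TPM in WT. Squamous markers, too low to test, summed to at most 3.13 TPM in CKO and 2.68 TPM in WT. The part of these cells in the subunit values was not tested.

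**Figure D4:**
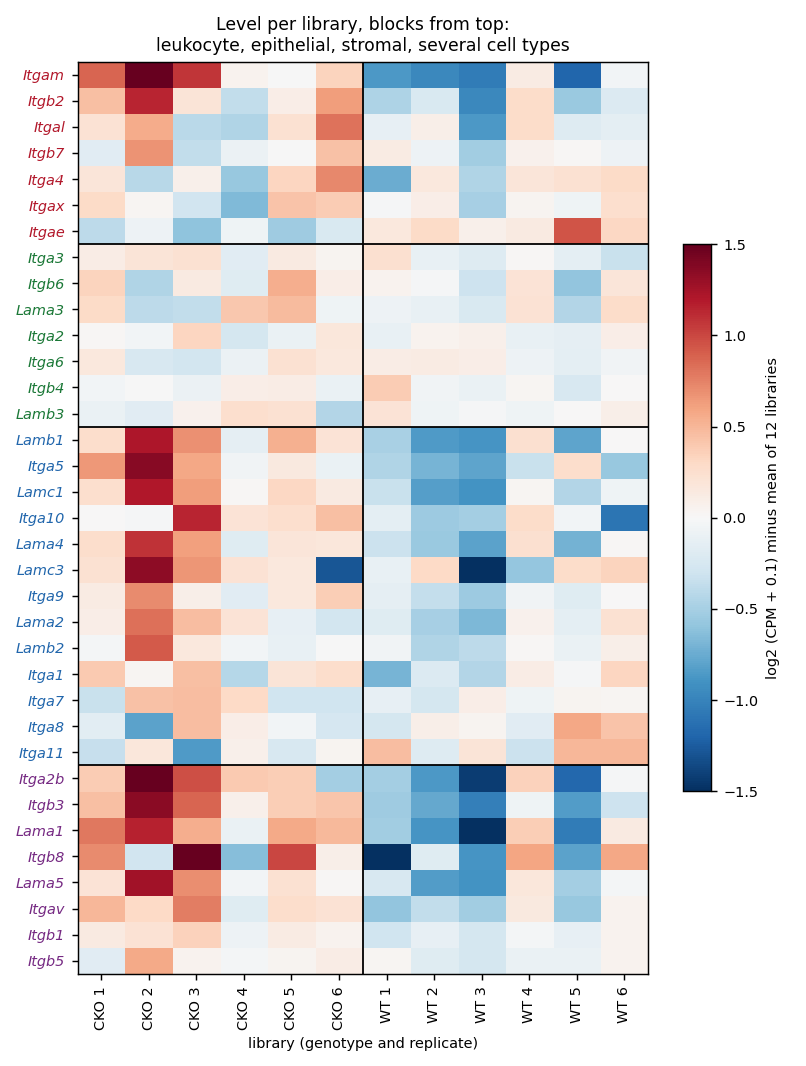
Log2 (CPM + 0.1) of 35 tested subunits in each library minus the mean of the 12 libraries, CKO on the left, in blocks of leukocyte, epithelial, stromal and several-cell-type subunits from the top. Most stromal and several-cell-type rows are red in CKO 2 and CKO 3 and blue in WT 2 and WT 3, CKO 4 and WT 4 are both near the mean, and the epithelial rows are pale throughout.

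Among the 7 tested leukocyte subunits the largest fold change was that of Itgam, the alpha chain of the complement receptor of neutrophils and macrophages. Itgam (ENSMUSG00000030786) had a lowest, median and highest level of 58.6, 91.4 and 188 CPM in CKO, against 25.8, 31.3 and 64.1 CPM in WT (log2 fold change 1.37 ± 0.32, SE; edgeR adjusted p = 0.0542). All CKO libraries lay above the WT median and 4 lay above all WT libraries, WT 4 being the highest of its group. Itgb2, the beta chain shared by Itgam, Itgal, Itgax and Itgad, had 43.7, 70.8 and 124 CPM in CKO and 28.8, 44.5 and 68.1 CPM in WT (0.74 ± 0.24; edgeR adjusted p = 0.0939). The other tested partners of Itgb2, Itgal and Itgax, were closer between genotypes. Itgal, the lymphocyte chain that binds ICAM proteins, had 25.2, 40.2 and 60.9 CPM in CKO and 18.9, 31.4 and 41.6 CPM in WT (0.35 ± 0.23, and 0.20 without CKO 6; edgeR adjusted p = 0.386). Itgax, a chain of dendritic cells and some macrophages, had 11.6, 20.8 and 25.0 CPM in CKO and 13.1, 18.7 and 22.1 CPM in WT (0.09 ± 0.18; edgeR adjusted p = 0.813). Itga4, a homing subunit of lymphocytes, had 23.0, 37.3 and 56.1 CPM in CKO and 20.3, 38.4 and 41.7 CPM in WT (0.12 ± 0.23; edgeR adjusted p = 0.797).

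Itgae was the subunit lower in CKO at an adjusted p under 0.1. Its product pairs with that of Itgb7 and holds intraepithelial T cells and some dendritic cells to E-cadherin on the epithelium. Itgae had a lowest, median and highest level of 3.96, 4.90 and 5.81 CPM in CKO, against 6.42, 7.12 and 11.8 CPM in WT, and all 6 CKO libraries lay below all 6 WT libraries. The log2 fold change was -0.66 ± 0.18 (SE; edgeR adjusted p = 0.0635; exact two-sided permutation p = 0.00216), and CKO colons held 63.3% of the WT level. Its partner Itgb7 had 10.8, 13.5 and 22.2 CPM in CKO and 9.69, 13.7 and 15.2 CPM in WT (0.19 ± 0.18, and 0.0510 without CKO 2; edgeR adjusted p = 0.577). T cell markers beside it stood at -0.22 (Cd3e, edgeR adjusted p = 0.613) and -0.37 (Cd8a, edgeR adjusted p = 0.418), and their part in the Itgae values was not tested.

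Itgad and Itgb2l were below the filter. Itgb2l encodes a mouse relative of Itgb2 known from neutrophils, and its counts in CKO replicates 1 to 6 were 29, 106, 62, 11, 1 and 2, against 2, 2, 1, 8, 0 and 0 in WT replicates 1 to 6. The high counts were those of CKO 1, 2 and 3, and the leukocyte markers were also highest there, with a sum of 1355 to 2544 TPM in these 3 libraries, against 432 to 797 TPM in CKO 4 to 6 and 192 to 1190 TPM in WT. In the authors' deposited table Itgb2l had a log2 fold change of 4.08 and an adjusted p of 0.00486. How the counting treated reads that match both Itgb2 and Itgb2l is not stated. Itgad, an alpha partner of Itgb2, averaged 0.325 TPM in CKO and 0.339 TPM in WT. Over the 12 leukocyte markers the median log2 fold change was 0.25, with 8 above 0 and 1, Cd68, at an adjusted p under 0.1 in edgeR. Of all tested genes, 6.59% were higher in CKO by this rule. The part of the leukocyte markers in the leukocyte subunit values was not tested.

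Partner subunits and alternative chains were compared within each library through 14 ratios of log2 CPM, each tested by an exact two-sided permutation test with Benjamini-Hochberg adjustment over the 14. At an adjusted p under 0.05, 10 ratios differed between CKO and WT. With 1 library left out 0 to 8 did, depending on the library, and 0 did when log2 (TPM + 1) replaced log2 CPM. Itgb7 to Itgae was the ratio without overlap, with a mean of 1.57 ± 0.30 in CKO and 0.79 ± 0.34 in WT (SD, n = 6 each; difference 0.79, exact adjusted p = 0.0303). Itgb3 to Itgav was higher in CKO, at -1.94 ± 0.39, than in WT, at -2.50 ± 0.19 (difference 0.57, exact adjusted p = 0.0303). Around Itgb2 the ratio to Itgam differed in the other direction from the rest: Itgam to Itgb2 was higher in CKO by 0.62 (exact adjusted p = 0.0485), whereas Itgax to Itgb2 stood at a difference of -0.66 and Itgal to Itgb2 at -0.39 (exact adjusted p = 0.0455 and 0.0485).

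Several ratios of an epithelial subunit to a stromal or more widely made counterpart were lower in CKO at an adjusted p under 0.05. Lamb3 to Lamb1 was -0.53 ± 0.57 in CKO and 0.44 ± 0.48 in WT (SD, n = 6 each; difference -0.97, exact adjusted p = 0.0455). Itgb6 to Itgav had a difference of -0.46 and Itga2 to Itgb1 one of -0.23, each with an exact adjusted p of 0.0485, and Lama3 to Lama5, which missed the threshold, one of -0.67 with an exact adjusted p of 0.104. Itga5 to Itgb1 was higher in CKO by 0.59 (exact adjusted p = 0.0485). Lama4 to Lama2, at 0.31, missed the threshold (exact adjusted p = 0.0854), as did the pairs Itgb7 to Itga4 and Itgb4 to Itga6, at 0.05 and 0.02 (exact adjusted p = 0.926 for both). The hemidesmosome pair Itgb4 to Itga6 thus ran from -0.33 to 0.16 in CKO and from -0.27 to 0.20 in WT.

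**Figure D5:**
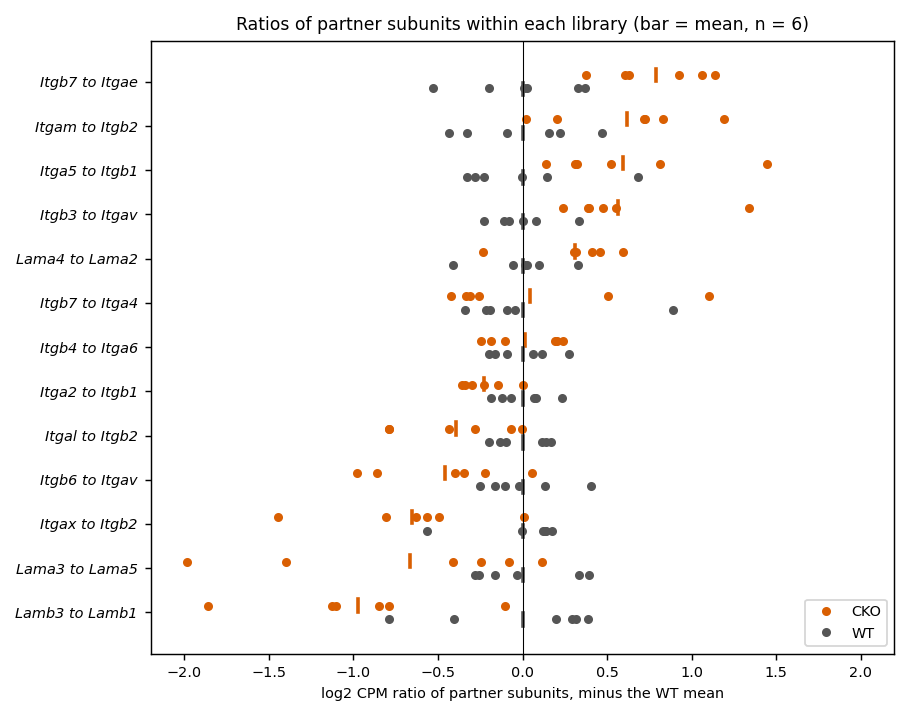
Ratio of partner subunits, for 13 ratios, in each library (log2 CPM difference, shifted so that the WT mean is 0), CKO above WT in each row; short bars are means (n = 6 each). Itgb7 to Itgae shows no overlap, Lamb3 to Lamb1 has the lowest CKO mean at -0.97, and Itgb4 to Itga6 is spread around 0 in both genotypes.

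The ligands and helpers of these subunits were read from lists of their own. At an adjusted p under 0.1 in edgeR, 6.59% of all tested genes were higher in CKO and 3.02% were lower. Of 16 matrix ligands and basement membrane partners 9 were higher and 0 lower by this rule (median log2 fold change 0.74). They were led by Tnc (tenascin-C, a ligand of Itga9) at 1.32 ± 0.26, Thbs1 (thrombospondin-1, a ligand of several integrins) at 1.56 ± 0.36, and Col4a1 (the basement membrane collagen that is laid down with laminin) at 1.16 ± 0.28, with edgeR adjusted p = 0.0512, 0.0540 and 0.0569. Of 8 counter-receptors on other cells 3 were higher by the same rule (median 0.51). These were Vcam1, the ligand of Itga4 integrins on vessels, at 0.88 ± 0.22, and Icam2 and Icam1, ligands of Itgb2 integrins, at 0.66 ± 0.19 and 0.999 ± 0.31 (edgeR adjusted p = 0.0601, 0.0710 and 0.0857). Cdh1, the E-cadherin bound by the Itgae product, stood at -0.20 ± 0.09 (edgeR adjusted p = 0.202).

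Inside the cell, 2 of 22 integrin activators and adaptors were higher and 0 lower at an adjusted p under 0.1 (median 0.20), a share near the 6.59% of all tested genes that were higher by this rule. These were Parvb (beta-parvin, which links integrins to actin) at 0.82 ± 0.23 and Rap1b (a small GTPase that activates integrins) at 0.26 ± 0.08, and the next by p was Zyx (zyxin, of focal adhesions) at 0.37 ± 0.13 (edgeR adjusted p = 0.0694, 0.0959 and 0.114). Of 6 tested hemidesmosome genes and other laminin receptors 0 passed an adjusted p of 0.1 in edgeR and 1, Dst (the plakin that ties the hemidesmosome to keratin), passed an unadjusted p of 0.05, at 0.25 ± 0.09 (edgeR adjusted p = 0.139). Plec, which does the same work, stood at 0.20 ± 0.11 and the syndecan Sdc1 at 0.24 ± 0.15, beside Itgb4 and Itga6 near 0.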

How the data were processed

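Colon RNA of 12 mice was sequenced (6 CKO, 6 WT). Per the labels' protocols, RNA was isolated with Trizol and a SMARTER mRNA-Seq kit made the libraries. Per the file headers, the authors deposited raw read counts (whole numbers), TPM per library with group means, a log2 fold change (the log2 ratio of the mean TPM), and p-values with their adjusted values from a test that is not named. The submitters' processing notes list GRCm38, mm10 and mm39 without roles. For the aligner, the counter and the use of strand nothing is given in the sources used here, so overlapping and antisense genes cannot be told apart, and no gene coordinates are taken from the table. The table held 0 columns of other samples.

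The counts went into edgeR 4.0.16 (R 4.3.3): filterByExpr (minimum count 10, minimum total 15) left 14393 genes, of 18161 with at least 1 count, TMM scaled the libraries, and glmQLFTest compared CKO with WT over all 12 libraries without covariates, with Benjamini-Hochberg adjustment; calls were made under 0.05. edgeR estimated a biological coefficient of variation of 0.262. The SE of an edgeR log2 fold change was derived as its absolute value over the square root of the test's F statistic. The script was tested on simulated data. Alternatives were DESeq2 1.42.0, limma voom 3.58.1, other scalings and filters, a replicate block and leaving out each library. For ratios, log2 CPM had 2 as the prior count. Labels number separate mice, so p-values measure the spread between these mice. No library copied another: the lowest chi-square per gene over 66 pairs of libraries was 19.6. Replicate numbers did not pair the libraries.

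The subunits, classes, marker and ligand lists were chosen with earlier results of these data known. Subunits given with lowest, median and highest level were those with the 4 smallest p in each class and their partners, with some of the others. Of each ligand list the 3 genes with the smallest p were named; Cdh1, Cd68 and the T cell genes were added after their values were seen. Values of 1 subunit, which stays in the counts, medians and adjustments, are not reported here. The promoter table comes from RefSeq, build GRCm38.p6.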

Additional observations from a re-analysis of the deposited data

Results flagged for a closer look

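Over 72 groups of 6 libraries (36 subunits in CKO and in WT), 4 had a library farther from its neighbour, in log2 CPM, than Dixon's limit for groups of 6 allows, where chance gives about 5% of groups. Lamb2 was highest in CKO 2, at 69.0 CPM with the next library at 40.4 CPM, a gap of 0.743 of the range of log2 CPM, and its log2 fold change was 0.13 without that library and 0.33 with it. Itgb5 was also highest in CKO 2, at 107.6 CPM with the next at 78.2 CPM, a gap of 0.627 of the log2 range, and stood at 0.09 without it and 0.21 with it. Itgae was highest among WT libraries in WT 5, at 11.8 CPM with the next at 7.60 CPM, a gap of 0.722 of the log2 range, and stood at -0.51 without it and -0.66 with it. Itgb7 was lowest among WT libraries in WT 3, at 9.69 CPM with the next at 13.2 CPM, a gap of 0.681 of the log2 range, and stood at 0.11 without it and 0.19 with it; leaving out CKO 2 moved it further, to 0.0510.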

How the results depend on the processing

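The number of subunits called at an adjusted p under 0.05 depended on the processing, from 0 to 14, while epithelial subunits called stayed at 0 under every alternative run. Against 8 genes and 0 subunits in the analysis as reported, DESeq2's size factors in edgeR gave 52 genes and 1 subunit (Itgb3), library size only 275 and 2 (Itgam and Itgb3), DESeq2's test 1532 and 14, limma voom 49 and 1, and the replicate block 1 gene and 0 subunits. Same-numbered libraries correlated at -0.50 to 0.08 and 0 correlated best with their own number, so the numbers were not taken as pairs. Leaving out 1 library gave 2 to 1272 genes and 0 to 12 subunits: 12 without CKO 4, 10 without WT 4 and 2 without WT 6 (373 genes, 2.58% of those tested), and 0 without any other. Leaving out CKO 4 and WT 4 together, chosen after seeing the data, gave 1911 genes (13.3%) and 13 subunits. The cause was not tested. The adjusted p of Itgb3 ran from 5.82e-05 with DESeq2 to 0.259 with the replicate block. Partner ratios passing numbered 0 with log2 (TPM + 1) and 0 to 8 with 1 library left out, against 10 as reported. Class medians kept their sign under every alternative: without 1 library they ran from 0.11 to 0.27 for leukocyte, 0.05 to 0.11 for epithelial, 0.32 to 0.51 for stromal subunits and 0.64 to 1.07 for those of several cell types.

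Values near 0 turned in sign. Itga6 stood at 0.00390 with DESeq2's size factors and 0.00384 with DESeq2's test; with library size only Itga6, Itgb4 and Lamb3 stood at 0.0326, 0.0239 and 0.00406; with no low-count filter Itgb4 and Itga6 stood at 0.00627 and 0.00969. With 1 library left out, log2 fold changes ran from -0.0607 to 0.0388 for Itga6, -0.0167 to 0.10 for Itga2, -0.0635 to 0.0677 for Itgb4, -0.0329 to 0.23 for Itga4 and -0.0880 to 0.0375 for Lamb3, and differences in ratio from -0.0292 to 0.0711 for Itgb4 to Itga6 and -0.16 to 0.22 for Itgb7 to Itga4. Scarce subunits (Itga10, Lamc3, Itga2b, Itgad, Itgb2l) rest on few reads, and differences in them may not be detectable at this depth.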
